A study of Mus musculus with 6 samples.

Results

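The Myc, Max and Mxd network was followed as 7 genes (Myc, Max, Mxd1, Mxd4, Mxi1, Mnt and Mlx), which were found by symbol among the 43432 genes of the normalized count table. All 7 passed the filter on low values, a mean of at least 10 normalized counts, as did 9923 genes in all. The RNA was that of splenic CD11b+ cells from 6 mice, 3 in each of 2 groups, with 1 bulk library per mouse. CD11b pairs with CD18 to form an adhesion receptor of neutrophils, monocytes, many macrophages and some dendritic cells. All hosts were C57BL/6J mice of the Rag1 KO genotype, which make no mature lymphocytes of their own, and all were sampled on day 8 post transfer. Every host had been given 2D2 CD4+ T cells, taken from mice with a receptor specific for myelin oligodendrocyte glycoprotein (MOG) and not otherwise manipulated. With them came B cells grown in the iGB system and loaded with MOG protein. For the group named WT iGB6 these were WT B cells transduced with a pMSCV-IRES2-eGFP retrovirus holding Il6, the gene of interleukin 6. For the group named IgHMOG iGBGFP they were IgHMOG B cells transduced with the empty pMSCV vector. The B cell genotype and the vector therefore changed together and cannot be told apart. Replicate 1 of either group came from a female mouse and the others from males.

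The network is a set of basic helix-loop-helix leucine zipper proteins that bind the DNA hexamer CACGTG, the E-box, as pairs. MYC binds with its obligate partner MAX and raises transcription of genes for ribosome synthesis, metabolism and cell cycle entry, while the MXD proteins (MXD1, MXI1, MXD4) and MNT compete for MAX and recruit SIN3 corepressors. MLX is a MAX-like partner that pairs with MondoA (gene Mlxip) and ChREBP (gene Mlxipl), sensors of sugar phosphates, and also with some MXD proteins and MNT. In the myeloid lineage MYC is a factor of dividing precursors, and MXD1 is known to rise as granulocytes mature.

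The E-box that these proteins bind also stood in the promoters of several of the network's own genes. RefSeq promoters of the GRCm38.p6 build, each 250 bases before and 50 bases after a start site, were matched for 6 of the 7 members. The hexamer CACGTG, which reads the same on both strands, was present for 4 of these 6 genes (Max, Mlx, Mnt and Mxd4), against 8.09% of the 27025 genes in the promoter set. Neither the Mxd1 promoter nor any of the 3 Mxi1 promoters held these letters. The stretches around the E-box are shown 5′ to 3′ on the gene's strand with the E-box in capitals. Distances are to the RefSeq start sites, which differ from the gene starts in the coordinates given further below, taken from the GENCODE annotation. The Max E-box spans its RefSeq start site, so that stretch ends with the E-box. The capitals are the letters that MYC and MAX pairs are known to read, and a match is a description of the sequence only.
Mlx, chr11:101087225-101087280, plus strand, E-box 40 bases before the start site: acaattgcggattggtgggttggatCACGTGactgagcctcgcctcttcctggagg
Mnt, chr11:74830776-74830831, plus strand, E-box 123 bases before the start site: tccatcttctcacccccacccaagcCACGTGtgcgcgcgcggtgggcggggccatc
Mxd4, chr5:34187899-34187954, minus strand, E-box 219 bases before the start site: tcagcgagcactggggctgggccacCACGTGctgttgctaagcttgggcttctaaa
Max, chr12:76962246-76962276, minus strand, E-box beginning 3 bases before the start site: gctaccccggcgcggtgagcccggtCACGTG

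The libraries held 5196339 to 7564254 reads and 14816 to 17013 detected genes. The gated cell type was present in every library: Itgam, the CD11b chain itself, was at 6451 to 10606 normalized counts in IgHMOG iGBGFP and 9561 to 12352 in WT iGB6. Of the 6 marker genes of the CD11b gate, Itgam among them, 3 were higher and 3 lower in WT iGB6. Their log2 fold changes ran from -1.12 to 0.49, and 0 passed an adjusted p of 0.05 with limma. Late neutrophil granule genes took up 9.53 to 20.5% of each IgHMOG iGBGFP library's normalized counts and 16.7 to 23.3% in WT iGB6. Mature neutrophil markers took up 3.59 to 5.21% and 4.07 to 5.47%. Markers of neutrophil precursors took up 0.106 to 0.198% of each IgHMOG iGBGFP library's normalized counts and 0.311 to 0.521% in WT iGB6. The corresponding shares were 0.136 to 0.666% and 0.0571 to 0.173% for dendritic cell markers and 0.0354 to 0.131% and 0.00657 to 0.0235% for basophil and mast cell markers. T cell and B cell markers together were low, with at most 0.00435% and 0.00285% of a library. In bulk RNA, fewer cells of a type and less RNA per cell cannot be told apart, and this holds for every value below. The part of these shifts in the values of the network was not tested. In IgHMOG iGBGFP replicate 3 the plasma cell gene Ighg1 was at 214 normalized counts, against 1.19 to 7.87 in the other 5 libraries.

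No member of the network was called as different between the groups. With limma, 0 of the 7 members passed an adjusted p of 0.05 in either direction, against 6.12% of the 9923 genes tested (2.75% higher and 3.37% lower in WT iGB6), and 1 member, Mlx, had an unadjusted p under 0.05, against 24.5% of all genes. edgeR and DESeq2 on the recovered reads also called 0 of the 7. Their log2 fold changes, WT iGB6 over IgHMOG iGBGFP, ran from -0.63 to 0.46 with a median of -0.16, beside a median of 0.02 over all genes tested. Of the 607 genes called, 45.0% were higher in WT iGB6, and with upper quartile scaling 32.8% of 692 were. The count over all genes rests on the sex term, since 10 genes were called without it, and no gene named below as risen or fallen passed without it (adjusted p = 0.0887 to 0.168).

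**Figure D1:**
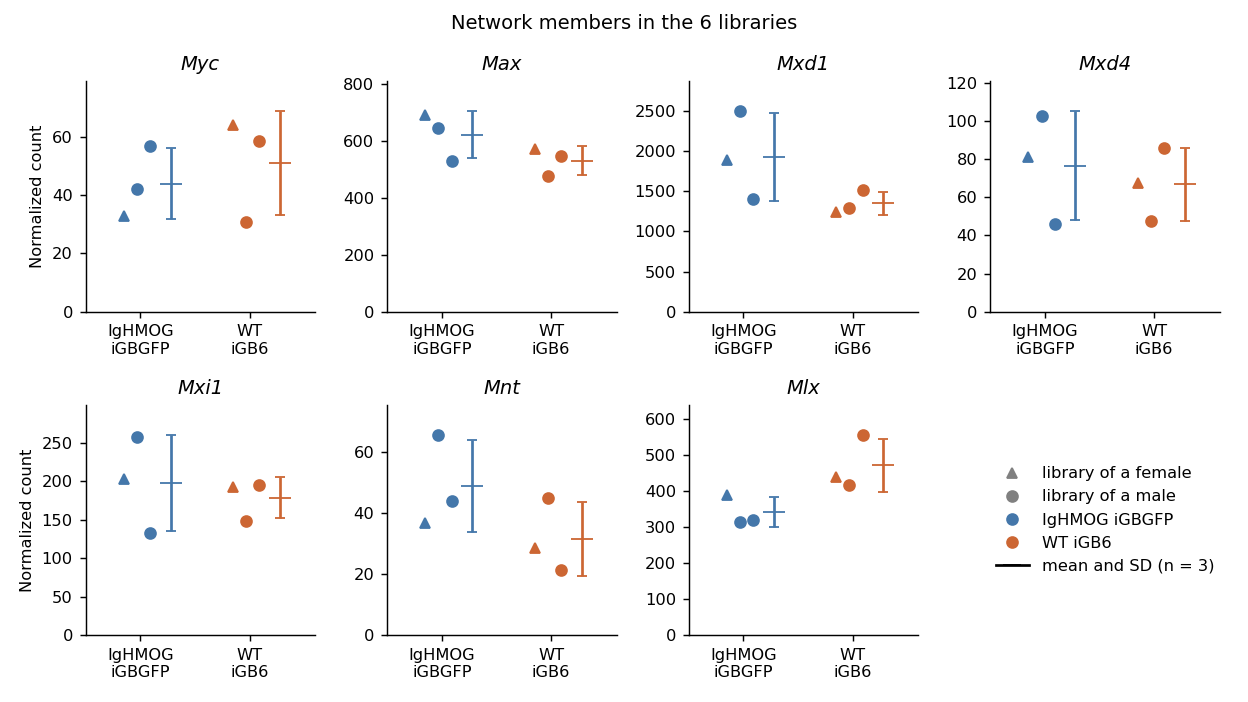
Normalized count of each of the 7 members in the 6 libraries, with the 3 libraries of IgHMOG iGBGFP in blue and the 3 of WT iGB6 in orange, triangles for females, circles for males, and the mean with its SD beside them. The groups overlap for every member except Mlx, whose 3 WT iGB6 libraries (418 to 556) lie above its 3 IgHMOG iGBGFP libraries (313 to 389).

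Myc, the activating member, was a low transcript in these cells. The gene (ENSMUSG00000022346, GRCm38 chromosome 15, 61985391 to 61990374, plus strand, protein-coding) was covered by 32, 49 and 57 reads in the IgHMOG iGBGFP libraries, replicates 1, 2 and 3, or 32.7, 42.3 and 57.0 normalized counts. In WT iGB6 replicates 1, 2 and 3 it had 54, 39 and 52 reads, or 64.0, 30.8 and 58.5 normalized counts. The lowest and the highest of the 6 libraries were both in WT iGB6, so the groups overlapped in full. The means were 44.0 ± 12.2 and 51.1 ± 17.8 (SD, n = 3 per group), a log2 fold change of 0.18 (SE 0.35, limma adjusted p = 0.796). Its 95% interval ran from -0.60 to 0.96.

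The sign of the Myc estimate was not the same in the females, with 1 library per group, and in the males. Among the males, WT iGB6 replicate 3 (58.5 normalized counts) lay above both IgHMOG iGBGFP libraries and WT iGB6 replicate 2 (30.8) below both. The 2 females differed by 0.95 on the log2(normalized count + 1) scale, higher in WT iGB6, while the males alone gave -0.20 (adjusted p = 0.841). The test of that difference between the sexes, the interaction of group and sex, gave -1.15 (SE 0.72, unadjusted p = 0.137, adjusted p = 1.00) and did not pass. It did not pass for any other member, or for any of the 9923 genes. Sex and replicate number 1 coincide, so the sexes differ here also in anything else that the replicates numbered 1 shared.

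Max, the gene of the partner shared by MYC, the MXD proteins and MNT, was well measured. The gene (chromosome 12, 76937269 to 76962201, minus strand) stood at 689, 647 and 530 normalized counts in IgHMOG iGBGFP replicates 1, 2 and 3. The WT iGB6 libraries stood at 572, 476 and 546. WT iGB6 replicates 1 and 3 lay above the lowest IgHMOG iGBGFP library, so the groups overlapped. Max had the smallest standard error of the 7, with a log2 fold change of -0.22 (SE 0.17, adjusted p = 0.456) and a 95% interval from -0.60 to 0.15.

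Mxd1 was the most abundant repressor. MXD1 is the MAX partner associated with terminal differentiation of myeloid cells, and its gene (chromosome 6, 86647042 to 86669161, minus strand) had 1892, 2498 and 1399 normalized counts in IgHMOG iGBGFP replicates 1, 2 and 3. WT iGB6 had 1246, 1288 and 1513. IgHMOG iGBGFP replicates 1 and 2 lay above all 3 WT iGB6 libraries, and replicate 3 fell within their range. Means of 1930 ± 550 and 1349 ± 143 (SD, n = 3 per group) gave a log2 fold change of -0.48 (SE 0.22, adjusted p = 0.214) and a 95% interval from -0.97 to 0.01. Weighting the libraries by their quality passed it (-0.57, adjusted p = 0.0457). Leaving out IgHMOG iGBGFP replicate 2, the highest library, gave -0.26, and leaving out IgHMOG iGBGFP replicate 3 gave -0.74, with neither passing (adjusted p = 0.570 and 0.107).

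Mxi1 and Mxd4, which encode the other MXD repressors of the 7, had fewer counts than Mxd1. Mxi1 (chromosome 19, 53310518 to 53375810, plus strand) was at 203, 258 and 133 normalized counts in IgHMOG iGBGFP replicates 1, 2 and 3 and at 192, 148 and 196 in WT iGB6. Mxd4 (chromosome 5, 34173883 to 34187720, minus strand) was at 80.8, 103 and 46.0 and at 67.6, 47.4 and 85.5. For both genes the highest and the lowest of the 6 libraries were IgHMOG iGBGFP replicates 2 and 3, and the WT iGB6 libraries lay between them. The log2 fold changes were -0.10 (SE 0.26, adjusted p = 0.840) for Mxi1 and -0.16 (SE 0.34, adjusted p = 0.817) for Mxd4. Both turned positive without IgHMOG iGBGFP replicate 2 (0.17 and 0.15) and without WT iGB6 replicate 2 (0.01 and 0.07).

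Mnt, a MAX partner found in most cell types that antagonises MYC, was also a low transcript. Its gene (chromosome 11, 74830920 to 74845725, plus strand) had 36.8, 65.5 and 44.0 normalized counts in IgHMOG iGBGFP replicates 1, 2 and 3 and 28.5, 45.0 and 21.4 in WT iGB6. WT iGB6 replicates 1 and 3 were the lowest of the 6 libraries, and WT iGB6 replicate 2 was above 2 of the IgHMOG iGBGFP libraries. Its log2 fold change of -0.63 was the most negative of the 7, but it did not pass (SE 0.35, adjusted p = 0.294), with a 95% interval from -1.40 to 0.14. Without WT iGB6 replicate 3, in which Mnt had 19 reads, the value was -0.30, and without IgHMOG iGBGFP replicate 2 it was -0.43.

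Mlx was the member whose libraries separated by group. MLX is the obligate partner of MondoA and ChREBP. The gene (chromosome 11, 101087277 to 101092207, plus strand) had 389, 313 and 321 normalized counts in IgHMOG iGBGFP replicates 1, 2 and 3. It had 440, 418 and 556 in WT iGB6, so that each WT iGB6 library was above each IgHMOG iGBGFP library. A separation in that direction was seen for 12.2% of all genes tested, and for 1 of the 7 members. The log2 fold change was 0.46 (SE 0.19, 95% interval 0.04 to 0.88, unadjusted p = 0.0348), and it did not pass after adjustment (adjusted p = 0.168). The value was positive in all 19 alternatives, from 0.30 without WT iGB6 replicate 3 to 0.60 without either female library, with adjusted p from 0.135 to 0.386. In the authors' deposited table its log2 fold change was 0.44 (adjusted p = 0.234). The annotated exons of Mlx share 385 of their 1999 bases with Psmc3ip on the opposite strand, and no step that keeps strand is described for the library kit. Psmc3ip itself was at no more than 13.3 normalized counts in IgHMOG iGBGFP and 20.5 to 35.6 in WT iGB6. Its part in the Mlx values was not tested. Exons of Mxd4 share 514 of 8483 bases with Gm42846 and those of Mxi1 194 of 6823 with Gm10197, also on the opposite strand. Gm42846 had no value among the counts, and Gm10197 was at 0 in every library.

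**Figure D2:**
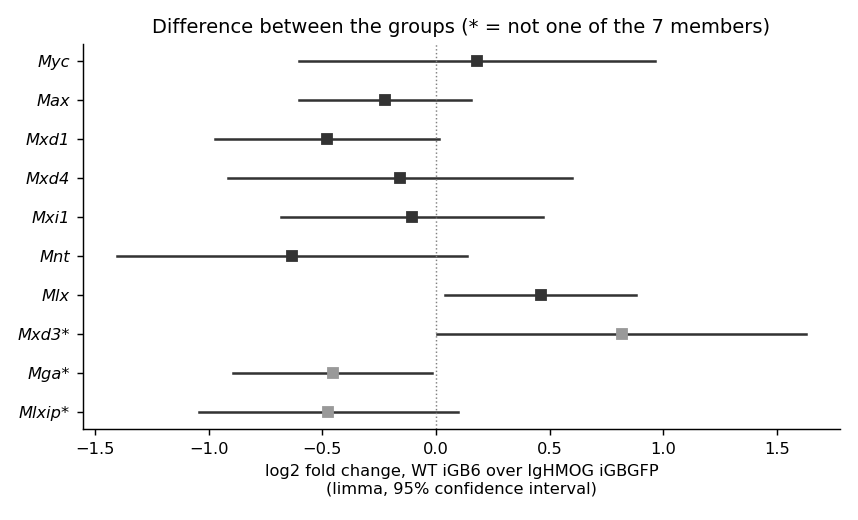
Difference between the groups as a log2 fold change, positive where WT iGB6 was higher (limma, x axis), for the 7 members and, marked with an asterisk, the other family genes that were tested. Squares are the estimates and lines the 95% confidence intervals, not adjusted for the number of genes. The interval of Mlx (0.04 to 0.88) lies above 0, and those of the other 6 members include it.

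Set on a scale that allows genes to be compared, normalized counts per kilobase of annotated exons, the 7 members fell into an abundant and a scarce set. Over the 6 libraries the mean level per kilobase was 232 for Mxd1, 203 for Mlx and 160 for Max. It was 27.6 for Mxi1, 17.5 for Myc, 8.69 for Mnt and 8.45 for Mxd4. The lowest library value among Mxd1, Mlx and Max (132 per kilobase) was above the highest among Mxi1, Myc, Mnt and Mxd4 (37.8 per kilobase). Within the abundant set the ranges of neighbours overlapped, and so did those of Mxi1 and Myc, of Myc and Mnt, and of Mnt and Mxd4, so their order is not fixed beyond the spread between mice. Mxd1 was the highest member per kilobase in all 3 IgHMOG iGBGFP libraries and Mlx in all 3 WT iGB6 libraries. This order follows from the values of both genes given above, and the difference between them was not tested. Exon length was taken over all annotated isoforms, so a gene read mainly as a short isoform is understated on this scale.

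**Figure D3:**
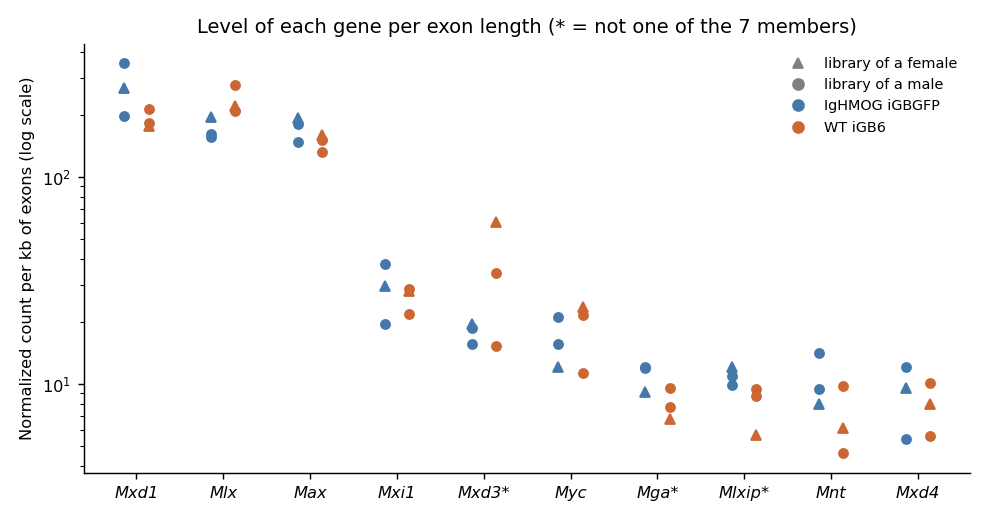
Level of each tested gene of the network and its wider family as normalized counts per kilobase of exons (log axis), 1 point per library, with IgHMOG iGBGFP in blue, WT iGB6 in orange, triangles for females and circles for males. Genes are ordered by their mean, and Mxd1, Mlx and Max stand apart from the rest, between 132 and 353 per kilobase.

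At the level of RNA, repressors exceeded Myc in every library. Summed per kilobase, Mxd1, Mxd4, Mxi1 and Mnt stood at 26.1, 26.8 and 11.1 times the level of Myc in IgHMOG iGBGFP replicates 1, 2 and 3, and at 9.27 to 19.3 times in WT iGB6. The ranges overlapped widely. Mxd1 made up 80.7 to 85.2% of that repressor sum. Max RNA exceeded Myc RNA by 6.74 to 15.9 times per kilobase. These ratios describe transcripts, and protein was not measured.

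Of the 6 further genes of the family, fixed as a list, 3 passed the filter and 0 were called, against 6.12% of all genes tested. Mycn and Mycl, the MYC paralogues, were all but absent, at 0 to 1.19 and 0 to 2.05 normalized counts, where 0 in a library allows up to 2.37 to 3.37 normalized counts in these libraries from counting error alone. Mlxipl, the gene of ChREBP, was at 0 to 6.14. Mxd3, an MXD family gene known to be expressed in the S phase of dividing cells, had 46.0, 44.0 and 37.0 normalized counts in IgHMOG iGBGFP replicates 1, 2 and 3 and 143, 81.3 and 36.0 in WT iGB6. WT iGB6 replicates 1 and 2 were the highest of all 6 and replicate 3 the lowest, and the log2 fold change was 0.82 (SE 0.36, adjusted p = 0.200). Without WT iGB6 replicate 3 it was 1.26 and passed (adjusted p = 0.0218), as it did with library weights (1.19, adjusted p = 0.0153).

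The large MAX partner Mga and the MondoA gene Mlxip had lower means in WT iGB6 without passing. Mga was at 140, 183 and 185 normalized counts in IgHMOG iGBGFP and at 104, 147 and 119 in WT iGB6 (log2 fold change -0.46, SE 0.20, adjusted p = 0.187). Mlxip was at 100, 90.6 and 82.0 and at 47.4, 78.9 and 73.1, with no overlap (log2 fold change -0.47, SE 0.26, adjusted p = 0.289). A separation in the lower direction was seen for 11.4% of all genes tested.

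Among genes that MYC is known to activate, 1 of the 56 tested rose in WT iGB6, against 2.75% of all genes tested. Of 60 genes, 56 were tested, 0 fell and 55 did not pass, and the median log2 fold change was 0.17 against 0.02 over all genes. The sign was positive for 38 genes and negative for 18. At an unadjusted p under 0.05 there were 12 genes, all higher in WT iGB6, against 24.5% of all genes in either direction. The libraries of the groups did not overlap for 14 genes that were higher and 1 that was lower in WT iGB6, against 12.2% and 11.4% of all genes. The gene that rose was Mcm5, a subunit of the replicative helicase, which did not pass without any single IgHMOG iGBGFP library or without WT iGB6 replicate 1 (adjusted p = 0.0768 to 0.178). Mcm2 and Mcm6, other subunits of that helicase counted among the cell division genes below, also rose, and Mcm3 did not pass. Mean normalized counts of Mcm5 were 337 ± 100 and 808 ± 333 (SD, n = 3 per group), a log2 fold change of 1.21 (SE 0.24, adjusted p = 0.0248). Ldha, the lactate dehydrogenase chain and the list's most abundant gene per kilobase, was at 4789 ± 1182 and 6431 ± 727 (log2 fold change 0.45, SE 0.20, adjusted p = 0.205). Ncl, the gene of the nucleolar protein nucleolin, was at 707 to 788 and 661 to 711 normalized counts (log2 fold change -0.11, adjusted p = 0.714) and was chosen after its values were seen. The hexamer CACGTG was present in promoters of 15 of the 52 matched genes of this list (28.8%), against 8.09% of all genes in the promoter set. Mcm5 was not among the 15. The share was 27.3% (3 of 11) for MYC-repressed genes, 50% (3 of 6) for MLX and MondoA targets, and 0 to 16.7% in the other pathway lists. The 3 MYC-repressed genes were Cdkn2c, Gadd45b and Klf6. The 3 MLX and MondoA targets were Arrdc4, Irs2 and Pfkfb3, and neither Txnip nor Arrdc3 was among them. Counted over the 10 promoters of those targets the share was 30%, against 7.15% of all promoters.

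Among genes that MYC is known to repress, 2 fell in WT iGB6. Of 13 genes 9 were tested, 0 rose and 7 did not pass, with a median of -0.56, and all 9 had a negative sign. Of all 9923 genes tested, 3.37% were called lower and 4804 had a negative sign. Cdkn1b, the p27 inhibitor of cyclin-dependent kinases, fell from 471, 588 and 489 to 274, 373 and 290 normalized counts in replicates 1, 2 and 3 (log2 fold change -0.73, SE 0.18, adjusted p = 0.0445). Gadd45b, a stress-induced growth arrest gene, fell from 253, 288 and 213 to 132, 153 and 91.1 (log2 fold change -1.02, SE 0.24, adjusted p = 0.0384). Klf6, the most abundant member per kilobase, was at 7103 ± 1556 and 4507 ± 603 (log2 fold change -0.64, SE 0.19, adjusted p = 0.0757) and passed with the replicate block (adjusted p = 0.0473), DESeq2 (0.0266) and library weights (0.0321). Neither fall passed without any single IgHMOG iGBGFP library or without WT iGB6 replicate 1 (adjusted p = 0.105 to 0.213), and that of Cdkn1b did not pass without WT iGB6 replicate 3 (adjusted p = 0.0632).

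Among targets of the MLX and MondoA pair, 2 fell in WT iGB6. Of 6 genes 5 were tested, 0 rose and 3 did not pass, with a median of -1.27, where 3.37% of all genes tested were called lower. Txnip, the thioredoxin-interacting protein that limits glucose uptake and the best known MondoA target, had 1740, 3612 and 3143 normalized counts in IgHMOG iGBGFP replicates 1, 2 and 3 and 681, 1570 and 687 in WT iGB6. All 3 WT iGB6 libraries were below all 3 IgHMOG iGBGFP libraries, a separation seen for 11.4% of all genes tested. Txnip fell by 1.58 on the log2 scale (SE 0.27, adjusted p = 0.0167). Its arrestin relative Arrdc3 fell by 1.30 on the log2 scale (SE 0.31, adjusted p = 0.0404), with means of 1273 ± 308 and 563 ± 338 and overlapping libraries. Arrdc4, another arrestin relative and known MondoA target, was at 38.9, 106 and 60.0 and at 20.2, 45.0 and 18.0 (log2 fold change -1.27, adjusted p = 0.0768), a gene chosen after its values were seen. Replicate 2 was the highest library of its group for both Txnip and Arrdc4, in either group. The fall of Txnip did not pass without IgHMOG iGBGFP replicate 2 (adjusted p = 0.144) or replicate 3 (adjusted p = 0.0904), and that of Arrdc3 did not pass without any single IgHMOG iGBGFP library or without WT iGB6 replicate 1 (adjusted p = 0.102 to 0.213). Dendritic cell, basophil and monocyte markers fell in the same libraries, with 7 of 8, 5 of 7 and 4 of 8 tested markers lower, and their part in these falls was not tested.

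Genes of cell division rose in WT iGB6. Of 20 genes 16 rose, 0 fell and 4 did not pass, with a median of 1.14, where 2.75% of all genes tested were called higher. Their summed normalized counts were 6044, 4195 and 4141 in IgHMOG iGBGFP replicates 1, 2 and 3 and 14534, 10988 and 7264 in WT iGB6. Rrm2, the ribonucleotide reductase subunit that makes DNA precursors, rose by 1.49 (SE 0.18, adjusted p = 0.00471), and the spindle gene Tpx2 by 1.45 (SE 0.20, adjusted p = 0.00918), on the log2 scale. The library with the highest sum, WT iGB6 replicate 1, also had the most Myc of all 6 (64.0 normalized counts), and the library with the second highest sum, WT iGB6 replicate 2, had the least (30.8). In the males alone 4 of the 20 were called, without IgHMOG iGBGFP replicate 2 there were 0, and without IgHMOG iGBGFP replicate 3 there was 1. All 8 measured markers of neutrophil precursors rose as well, and their part in the rise of these genes was not tested.

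**Figure D4:**
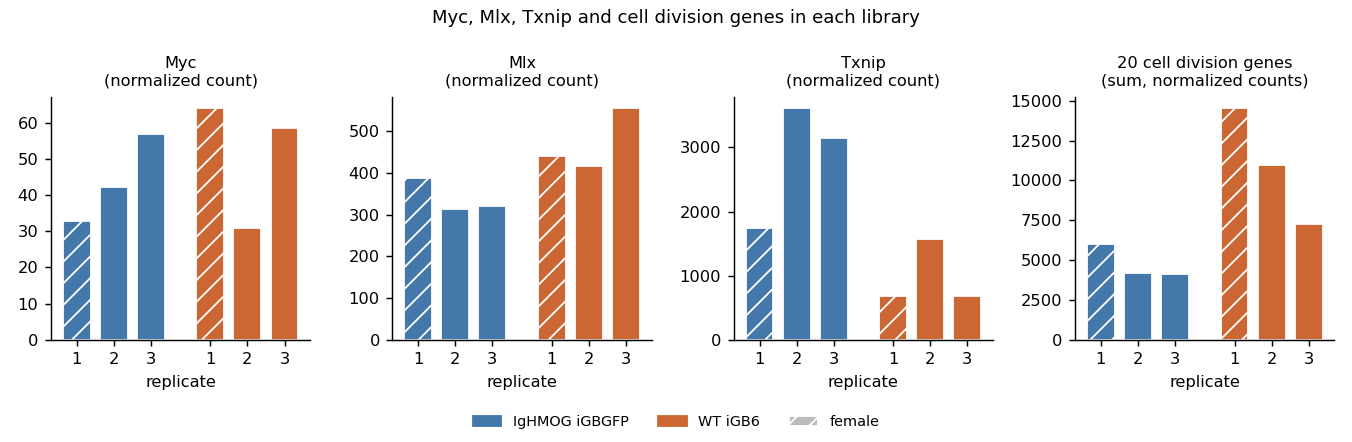
Myc, Mlx and Txnip (normalized counts) and the sum of the 20 cell division genes in each library, with IgHMOG iGBGFP in blue, WT iGB6 in orange and females hatched. All 3 WT iGB6 libraries lie above all 3 IgHMOG iGBGFP libraries for Mlx and the cell division sum and below them for Txnip, while Myc (30.8 to 64.0) shows no such order.

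**Figure D5:**
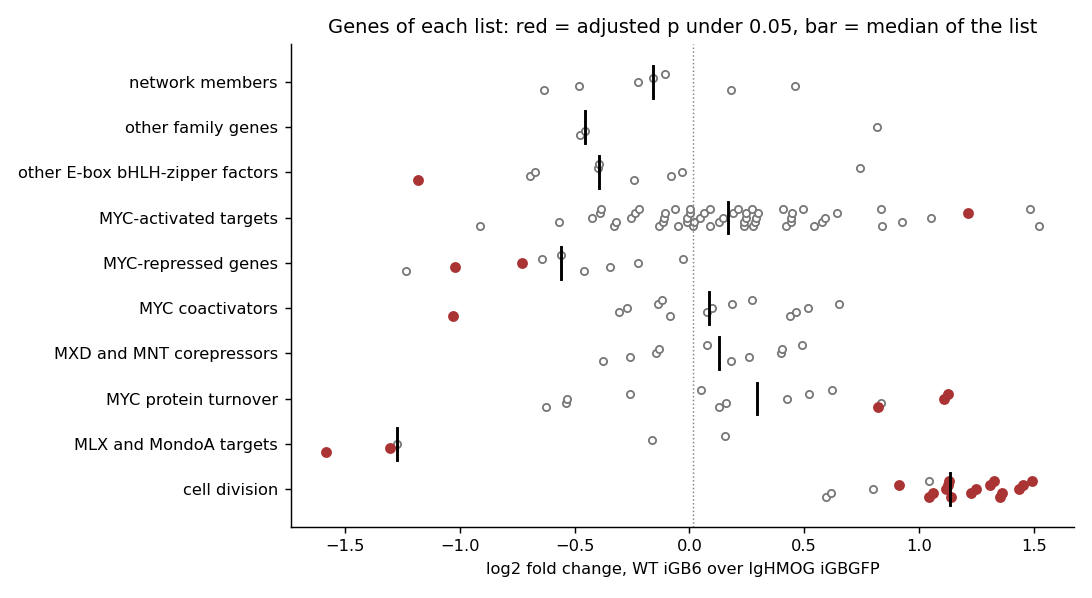
Difference between the groups as a log2 fold change, positive where WT iGB6 was higher (x axis), for every tested gene of the members and of each fixed list, with genes at an adjusted p under 0.05 in red, the others open, a bar at each list's median and a dotted line at the median of all genes. The 7 members hold no red point and the 20 cell division genes hold 16.

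For each member the genes with the most similar pattern over the 6 libraries were found by Pearson correlation of log2(normalized count + 1), among 5095 or 5096 genes with a mean of at least 100. The values are a description over 6 points from shared libraries. For Myc the closest were Dkc1 (r = 0.95), which encodes the pseudouridine synthase dyskerin and also stands in the list of MYC-activated genes, then Smpdl3a (0.94) and Acad9 (0.93). Only 10 candidates exceeded 0.9 for Myc, against 85 for Mxd1 and 332 for Mlx. The closest for Max were Klra17 (0.99), Tm9sf2 (0.97) and Tmem234 (0.97). The closest for Mxd1 were Grb2 (0.99), which encodes a signalling adaptor, Smarcd2 (0.99), a chromatin remodelling subunit needed for granulocyte maturation, and Ccni (0.98). For Mxi1 they were Capns1, Plekhf2 and Ctcf (each 0.98), and for Mxd4 Cox6a1 (0.99), Tomm22 (0.98) and Pdcd6ip (0.98). For Mnt they were Ppt2 (1.00), B9d2 (0.99) and Snrpb2 (0.99), and for Mlx Ttll1 (1.00), Rabif (0.99) and Rnf141 (0.99). Every one of these 21 values moved by less than 0.1 when a library was left out or the scaling or pseudocount was changed. The genes were picked for the highest r over these same libraries, so this stability is not separate support for a link.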

How the data were processed

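Libraries were grouped by the labels. Per the labels' protocols, RNA went into a low-input kit that amplifies cDNA, no molecular identifiers are mentioned, and counting error is therefore a lower limit. Tools listed in the submitters' processing notes are FastQC (0.74), cutadapt (4.4), STAR (2.7.10b), featureCounts (2.0.3) and DESeq2 (2.11.40.7), and the builds are GRCm38 and mm10, with no role stated. Not given in the sources used here are the annotation and the strand setting.

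As a signal per gene and library, the authors deposited a normalized count: whole reads, from featureCounts per the file headers, divided by a size factor. Reads were recovered by division by each column's step, which made 100% of values whole within 0.001. From the authors' own DESeq2 table, deposited without a header, the log2 fold change and the adjusted p-value were used as an alternative (10537 genes with an adjusted p-value), and its Wald score was not used. Which column is which was inferred from the values.

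Symbols, coordinates and exon lengths came from GENCODE M21 (GRCm38), matched for 42462 of 43432 genes. Groups were compared with limma (3.58.1, under R 4.3.3; eBayes with trend) on log2(normalized count + 1), in a two-sided test with terms for group and sex, Benjamini-Hochberg over the 9923 genes with a mean of at least 10, threshold 0.05. Fold changes on this scale understate the change of low genes. SE is limma's moderated standard error. edgeR (4.0.16, quasi-likelihood with TMM) and DESeq2 (1.42.0) ran on the recovered reads as alternatives and called 606 and 951 genes. The scripts were tested on simulated data. Lists (9 pathway lists, 14 marker lists) were described by counts and medians without a set test. Named from each pathway list were up to 4 called genes with the smallest p and the most abundant gene per kilobase. The members and lists were chosen with earlier results of these data known. Azu1 matched no symbol.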

Additional observations from a re-analysis of the deposited data

How the results depend on the processing

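The 7 members kept their side of the threshold in the 19 alternatives, except Mxd1, which passed with library weights (-0.57). Max, Mxd1, Mnt and Mlx kept their sign throughout. Leaving out 1 library gave -0.20 to 0.55 for Myc, -0.50 to 0.15 for Mxd4 and -0.37 to 0.17 for Mxi1, and the males alone gave -0.20 for Myc. Mxd4 and Mxi1 turned positive without IgHMOG iGBGFP replicate 2 (0.15 and 0.17) and without WT iGB6 replicate 2 (0.07 and 0.01). The cause was not tested. Myc and Mnt have no value at a minimum mean of 50.

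Counts over all genes, 273 higher and 334 lower, were 6 and 4 without the sex term, 435 and 566 with the replicate block, 459 and 620 without the filter, 731 and 712 with library weights and 422 and 529 with DESeq2. They were 61 and 72 in the males alone, 410 higher in the authors' deposited table, and 3 to 410 higher and 1 to 680 lower with 1 library left out. The low and high ends were without IgHMOG iGBGFP replicate 2 and without WT iGB6 replicate 2.

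Without the sex term every pathway list had 0 calls, and so did the males alone apart from 4 cell division genes (higher) and 1 MLX and MondoA target (lower). Of the marker lists, 1 basophil and mast cell marker was called without the sex term. The males alone called 4 neutrophil precursor markers as higher, and 4 basophil and mast cell, 4 dendritic cell, 2 monocyte and 1 plasma cell markers as lower. With library weights the lists gave 1 member lower, 1 other family gene, 8 MYC-activated genes, 1 coactivator and 2 corepressors higher. MYC-activated genes higher were 2 with the replicate block, quantile normalization, edgeR and DESeq2 and 3 without the filter. MYC-repressed genes lower were 4 with DESeq2. With 1 library left out, calls ranged from 0 to 1 for other family genes, 0 to 2 for other E-box factors, 0 to 4 for MYC-activated genes, 0 to 2 for MYC-repressed genes and 0 to 1 for coactivators in either direction. The same ranges were 0 to 4 for MYC protein turnover, 0 to 3 for MLX and MondoA targets and 0 to 20 for cell division.

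The labels do not say that replicate numbers pair mice. Deviations of same-numbered libraries correlated at 0.48, 0.35 and 0.04 over genes, and IgHMOG iGBGFP replicate 3 correlated best with WT iGB6 replicate 2 (0.29), so the numbers were not taken as pairs. The replicate block moved all calls from 607 to 1001. No interaction of group and sex was called for a member in the 11 alternatives run for it. It was not run with DESeq2, library weights, the replicate block or the authors' table, and it needs a female in each group. Myc and Mnt rest on 19 to 76 reads per library.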

Other observations

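Over all genes tested, 6.12% were called in either direction, 2.75% as higher and 3.37% as lower in WT iGB6. Of 14 coactivators that MYC recruits, 1 fell, 0 rose and 13 did not pass (median log2 fold change 0.09). Cdk9, the kinase that releases paused RNA polymerase, fell from 155, 199 and 179 to 75.9, 109 and 77.6 normalized counts in replicates 1, 2 and 3 (log2 fold change -1.03, SE 0.22, limma adjusted p = 0.0284). The groups did not overlap, which was so in the lower direction for 11.4% of all genes tested. The call of Cdk9 was lost without any single IgHMOG iGBGFP library or without WT iGB6 replicate 1 (adjusted p = 0.101 to 0.169). Kat5, an acetyltransferase and the most abundant coactivator per kilobase, was at 284 ± 71.9 and 392 ± 91.9 (SD, n = 3 per group; log2 fold change 0.46, adjusted p = 0.157). Of the 10 tested genes of the SIN3 and MXD corepressor list, 0 passed with limma (median 0.13), and edgeR and DESeq2 also called 0. At an unadjusted limma p under 0.05 there were 3, against 24.5% of all genes tested. Hdac1, a histone deacetylase and the most abundant corepressor per kilobase, was at 542 ± 60.8 and 714 ± 35.8 (log2 fold change 0.40, adjusted p = 0.167).

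Among 14 genes that control the turnover of MYC protein, 3 rose, 0 fell and 11 did not pass (median 0.29). These were Aurka (1.11, SE 0.24, adjusted p = 0.0315) and Plk1 (1.12, SE 0.25, adjusted p = 0.0339), mitotic kinases known to protect MYC proteins from degradation, and the deubiquitinase Usp37 (0.82, SE 0.21, adjusted p = 0.0472). Plk1 also stands in the cell division list, of which 16 of 20 genes rose. The part of that rise in the calls of Aurka and Plk1 was not tested. Usp37 was at 72.6 to 88.0 normalized counts in IgHMOG iGBGFP and 135 to 152 in WT iGB6, and it did not pass with edgeR (adjusted p = 0.0557). All 3 calls were lost without any single IgHMOG iGBGFP library or without WT iGB6 replicate 1 (adjusted p = 0.110 to 0.233), and that of Usp37 also without WT iGB6 replicate 2 (adjusted p = 0.0656).

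Of 9 other factors of the same structural family that read E-box sequences, 1 fell, 0 rose and 8 did not pass (median -0.39). Tfeb, a regulator of lysosomal genes, fell from 322, 366 and 381 to 179, 205 and 103 normalized counts in replicates 1, 2 and 3 (log2 fold change -1.18, SE 0.26, adjusted p = 0.0322). Its libraries did not overlap by group, as for 11.4% of all genes tested in the lower direction. Tfeb did not pass without any single IgHMOG iGBGFP library or without WT iGB6 replicate 1 (adjusted p = 0.0684 to 0.191). Usf1, the most abundant of them per kilobase, was at 345 ± 129 and 212 ± 77.2 (log2 fold change -0.67, adjusted p = 0.111) and passed without WT iGB6 replicate 2 (adjusted p = 0.0383).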
